A study of Rattus norvegicus with 44 samples.

Results

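The comparison described here sets the transcriptional change in liver beside the change in kidney of the same strain of rat at the top dose of crude MCHM (4-methylcyclohexanemethanol, an alicyclic alcohol sold in crude form for cleaning coal). For every probe set the kidney change, 500 minus 0 mg/kg, was subtracted from the liver change, 500 minus 0 mg/kg, with groups taken from the sample titles. It rests on 14 of 44 arrays, 4 vehicle and 4 dosed livers and 3 vehicle and 3 dosed kidneys, and on 31042 probe sets. All rats were male Harlan Sprague Dawley animals on NTP-2000 diet, 6 to 8 weeks old when assigned to groups. Vehicle groups received corn oil alone and the dosed groups crude MCHM in corn oil, by gavage at 5 mL/kg for 5 days, and were killed 1 day later. A positive difference means a higher liver change than kidney change. Changes and differences are on the log2 scale, SE is the standard error from limma, and a result is called where the Benjamini-Hochberg adjusted p of limma over all probe sets was under 0.05.

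Liver and kidney both meet a compound absorbed from the gut, and both oxidise and conjugate it with cytochromes P450, alcohol and aldehyde dehydrogenases, and glucuronosyl- and glutathione transferases. Nuclear receptors such as CAR, PXR and PPARA and the stress factor NRF2 set the level of many of these enzymes. Hepatocytes make most plasma proteins, whereas the tubules of the kidney reabsorb solutes along segments with different transport genes. A gene that moves in 1 organ may therefore be a gene that the other organ hardly expresses, so levels in both organs are given for most genes described as moving in 1 organ.

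The organ labels matched their markers. The mean level of 9 hepatocyte markers lay between 13.78 and 13.87 in the livers and between 4.29 and 4.50 in the kidneys. The mean level of 14 proximal tubule markers lay between 12.07 and 12.34 in the kidneys and between 6.52 and 6.72 in the livers. The labels call the arrays of a group biological replicates and do not say whether liver and kidney arrays come from the same animals. In whole tissue, fewer cells of a type and less RNA per cell cannot be told apart.

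Among the kidneys, vehicle replicates 2 and 3 stood apart. Both lay below all 15 other kidney arrays, vehicle replicate 1 and all doses included, for 828 of 31042 probe sets (2.67%), but for 316 of the 622 probe sets (50.8%) whose difference was below 0 at an unadjusted p under 0.01. Of the 338 probe sets called higher in dosed kidneys, 275 (81.4%) had this pattern. For differences above 0 at the same p the mirror pattern, both arrays above all 15 others, held for 53 of 467 probe sets (11.3%). A sign of RNA integrity also differed in these 2 arrays. The signal of the 3' minus the 5' beta-actin control probe set, which grows as RNA degrades or is copied less completely, was 2.68 and 2.82 in vehicle replicates 2 and 3, 2.17 in vehicle replicate 1 and 1.92 to 2.16 in the dosed kidneys. Kidney replicate 2 at 300 mg/kg read 3.88, the highest. Its place above vehicle replicates 2 and 3 at the 828 probe sets was fixed by the definition of the pattern and carries no information. The remaining 14 kidney arrays read 1.92 to 2.54, while all 27 livers read 1.10 to 1.42. The part of RNA integrity in the results was not tested beyond a fit with this signal as a covariate. Vehicle replicate 2 of each organ also differed in the X-linked RNA *Xist*, at 8.25 in liver and 6.95 in kidney against 2.68 to 3.27 in the other arrays, which goes against the male label of both, while the Y-linked *Eif2s3y* read 9.26 and 10.02 there against 8.94 to 9.49 in other livers and 9.35 to 9.94 in other kidneys. Without both arrays limma called 0 differences, with 2038 at an unadjusted p under 0.05.

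The difference was called for 9 of 31042 probe sets, a background of 0.029%, with 3 above 0 (0.00966%) and 6 below 0 (0.0193%). Leaving out 1 array at a time moved the count between 0, without kidney vehicle replicate 2, and 746, without kidney vehicle replicate 1. The liver change by itself was called for 57 probe sets (0.184%), 36 above 0 (0.116%) and 21 below (0.0677%), and the kidney change for 425 (1.37%), 338 above 0 (1.09%) and 87 below (0.28%). *Hes6*, *Slc16a13* and *Ccdc85c* were higher in dosed livers and lower in dosed kidneys. *Trps1*, a probe set of *Spats2l* and an unnamed probe set had the opposite pattern, lower in dosed livers and higher in dosed kidneys. The unnamed probe set was low on the scale in kidney, with means of 3.46 in vehicle and 3.94 in dosed arrays. A probe set of *Cgnl1* and 2 unnamed probe sets differed through the kidney, each with a liver change of unadjusted p above 0.05.

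*Hes6* encodes a basic helix-loop-helix transcription factor of the Hairy and enhancer of split family. In liver it read 10.46, 10.30, 10.09 and 10.10 in the vehicle arrays and 10.72, 10.49, 10.76 and 10.73 at 500 mg/kg. In kidney it read 10.35, 10.60 and 10.59 in the vehicle arrays and 9.99, 9.92 and 9.81 at 500 mg/kg. Groups did not overlap in either organ, and *Hes6*, at near-equal levels in both vehicle organs, was higher in every dosed liver and lower in every dosed kidney than in any vehicle array of that organ. The difference was 1.05 (SE 0.18, 95% confidence interval 0.69 to 1.41, adjusted p = 0.0116), made of a liver change of 0.44 (adjusted p = 0.128) and a kidney change of −0.61 (adjusted p = 0.0141). With the 11 livers and 6 kidneys at 0.1, 1 and 10 mg/kg in place of vehicle, which shares the 500 mg/kg arrays, it was 1.02 (SE 0.15, adjusted p = 0.00273). The call at the vehicle reference was lost without kidney vehicle replicate 2 or 3, kidney replicate 3 at 500 mg/kg or liver vehicle replicate 3, and the value over all alternatives lay between 0.89 and 1.13.

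*Slc16a13* encodes a monocarboxylate transporter of the plasma membrane. Its liver values were 6.90, 6.77, 6.63 and 6.65 in the vehicle arrays and 7.41, 7.24, 7.34 and 7.51 at 500 mg/kg, and its kidney values were 9.11, 9.30 and 9.14 in the vehicle arrays and 8.90, 8.74 and 8.71 at 500 mg/kg. Again neither organ's groups overlapped. The difference was 1.04 (SE 0.20, adjusted p = 0.0316), with a liver rise of 0.64 (adjusted p = 0.02) and a kidney change of −0.40 (adjusted p = 0.239). Against the lower doses it was 1.02 (adjusted p = 0.00888). A second, dimmer probe set gave 0.53 (adjusted p = 0.344). The call held in 4 of 15 fits that each left out 1 array, with values between 0.97 and 1.10 over all alternatives. *Ccdc85c*, which encodes a coiled-coil protein of apical cell junctions, read 6.77, 6.74, 6.20 and 6.65 in vehicle livers, 6.97, 6.94, 7.08 and 7.02 in dosed livers, 9.73, 10.34 and 10.07 in vehicle kidneys and 9.48, 9.14 and 9.37 in dosed kidneys. Its dosed livers lay above and its dosed kidneys below all vehicle arrays of the organ, and kidney vehicle replicates 2 and 3 were above all 15 other kidneys. The difference was 1.12 (SE 0.21, adjusted p = 0.0298) against vehicle and 0.71 (adjusted p = 0.152) against the lower doses, and its call held in 6 of the 15 fits.

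*Trps1* encodes a GATA-type zinc finger repressor. It read 5.05, 5.11, 4.98 and 4.53 in vehicle livers and 4.05, 4.06, 4.70 and 4.13 in dosed livers, and 8.93, 8.21 and 8.33 in vehicle kidneys and 9.16, 9.45 and 9.49 in dosed kidneys. The liver groups overlapped through 1 array of each group, and the 2 lowest kidneys were vehicle replicates 2 and 3. The difference was −1.55 (SE 0.30, adjusted p = 0.035) against vehicle and −0.68 (adjusted p = 0.389) against the lower doses. Its 3 other probe sets gave −1.11, −0.26 and −0.27, none of them called. Their liver changes were −0.10, 0.35 and −0.07 and their kidney changes 1.00, 0.61 and 0.21. The liver change of the called probe set, −0.68, was thus not matched by the others.

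The called probe set of *Spats2l*, which encodes a protein found in stress granules, read 5.59, 5.69, 5.84 and 5.93 in vehicle livers and 5.23, 5.33, 5.40 and 4.98 in dosed livers. In kidney it read 5.69, 4.78 and 4.99 in the vehicle arrays and 6.08, 5.91 and 5.94 at 500 mg/kg, with vehicle replicates 2 and 3 below all other kidneys. The difference was −1.35 (SE 0.21, adjusted p = 0.00798) against vehicle and −0.69 (adjusted p = 0.156) against the lower doses. The brighter probe set of *Spats2l* gave 0.10 (adjusted p = 0.95), so the 2 probe sets of the gene disagree. The called probe set of *Cgnl1*, which encodes the junction protein paracingulin, read 8.60, 7.20 and 7.31 in vehicle kidneys and 8.96, 9.20 and 8.91 in dosed kidneys, and 7.64 to 7.81 in vehicle and 7.55 to 7.79 in dosed livers. Its difference was −1.35 (adjusted p = 0.0298) against vehicle and −0.28 (adjusted p = 0.761) against the lower doses, and the brighter probe set gave −0.27 (adjusted p = 0.33).

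**Figure D1:**
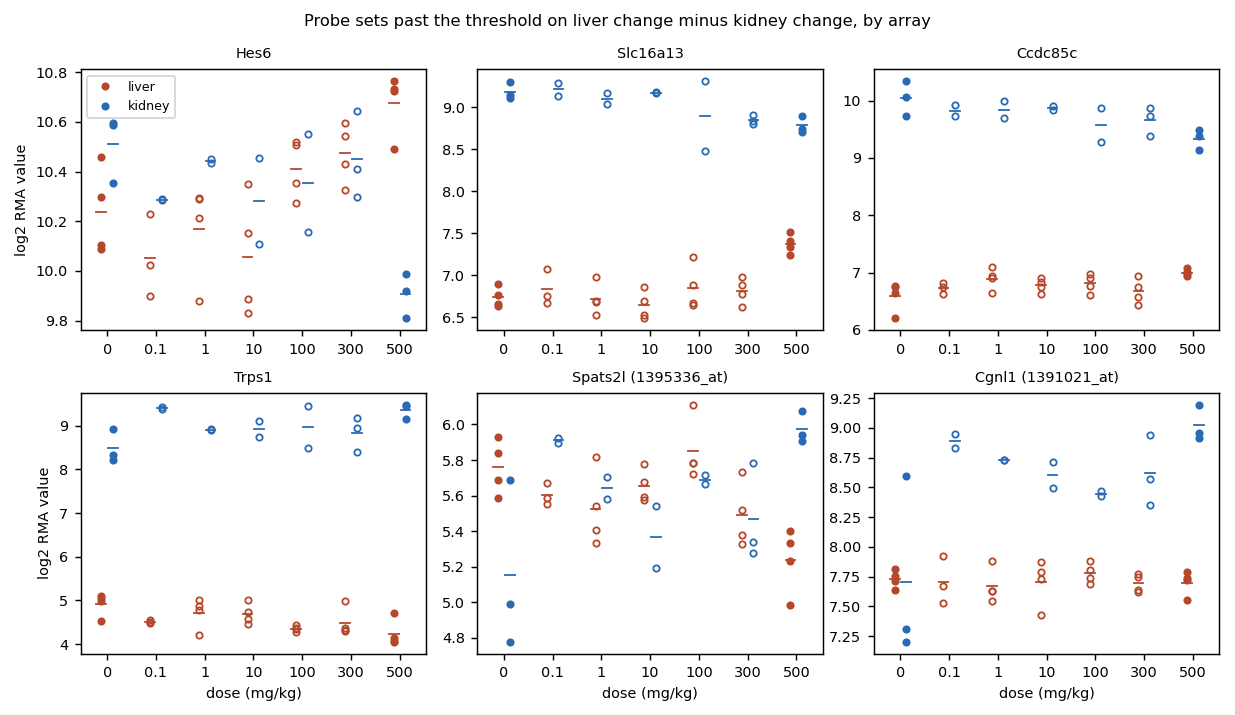
Log2 RMA value of 6 called probe sets by dose in mg/kg; each point is 1 array, filled at 0 and 500 mg/kg, and bars are group means. Hes6, Slc16a13 and Ccdc85c end above vehicle in liver and below it in kidney, whereas for Spats2l and Cgnl1 kidney vehicle replicates 2 and 3 lie below all other kidneys.

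The 6 calls below 0 shared this feature: in each of them kidney vehicle replicates 2 and 3 were below all 15 other kidney arrays, and differences of −2.04 to −0.97 against vehicle stood beside −0.86 to −0.28 against the lower doses. The standard deviation in vehicle kidneys was 0.48 for *Spats2l*, 0.77 for *Cgnl1* and 0.39 for *Trps1*, beside 0.09, 0.15 and 0.18 in dosed kidneys. For the unnamed probe sets it was 0.73, 0.88 and 0.13, beside 0.16, 0.23 and 0.28. An SE from the spread shared by all 44 arrays can understate scatter among the vehicle kidneys. With the 14 arrays alone limma called 2 probe sets. The 3 calls above 0 had differences of 1.04 to 1.12 beside 0.71 to 1.02. The limma fit without kidney vehicle replicate 2 made 0 calls (2127 at an unadjusted p under 0.05) and that without replicate 3 made 2, whereas without vehicle replicate 1 the count was 746, 576 of them below 0. Kidney replicate 2 at 300 mg/kg, the array with the highest beta-actin signal, enters only the shared spread, and without it 33 probe sets were called. With the beta-actin signal as a covariate within each organ, a fit chosen after the data had been seen, 4 probe sets were called, among them *Hes6* and the *Spats2l* probe set.

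**Figure D2:**
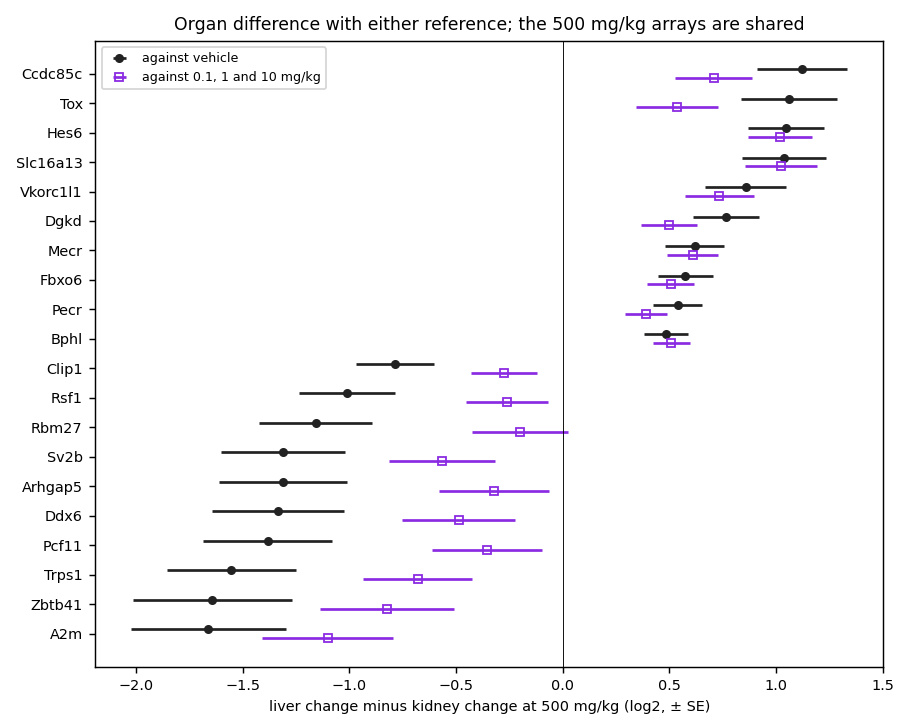
Liver change minus kidney change at 500 mg/kg (log2, ± SE) of the 10 genes each way with the smallest p, with vehicle arrays (filled circles) or arrays at 0.1, 1 and 10 mg/kg (open squares) as the reference; both share the 500 mg/kg arrays. Hes6, Slc16a13, Mecr and Bphl have near-equal values with either reference. The genes below 0 are closer to 0 against the lower doses, and so are Ccdc85c, Dgkd, Tox, Pecr, Vkorc1l1 and Fbxo6 above 0. All were picked by their p against vehicle.

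Promoter sequence is shown for the genes of the called probe sets with the smallest p above and below 0, although the brighter probe set of *Spats2l* was not called, with the half-site bound by many nuclear receptors in capitals. The windows span 250 bases before to 50 bases after the annotated start in assembly GRCr8, in the direction of the gene, for *Hes6* on the minus strand at chr9:99451047-99451346 and *Spats2l* on the plus strand at chr9:66888898-66889197.
Hes6: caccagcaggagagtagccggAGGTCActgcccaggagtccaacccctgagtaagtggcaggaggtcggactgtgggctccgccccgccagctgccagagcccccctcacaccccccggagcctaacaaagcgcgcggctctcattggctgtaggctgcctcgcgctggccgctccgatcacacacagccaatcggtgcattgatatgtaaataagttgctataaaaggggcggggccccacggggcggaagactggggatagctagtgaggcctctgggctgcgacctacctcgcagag
Spats2l: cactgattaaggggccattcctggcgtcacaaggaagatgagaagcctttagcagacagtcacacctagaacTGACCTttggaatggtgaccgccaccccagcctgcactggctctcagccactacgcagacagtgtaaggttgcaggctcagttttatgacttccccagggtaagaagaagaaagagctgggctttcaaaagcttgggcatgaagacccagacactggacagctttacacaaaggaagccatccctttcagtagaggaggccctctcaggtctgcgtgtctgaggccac
The letters searched were AGGTCA on both strands, and each window held 1 match, on the given strand for *Hes6* and on the other strand, as TGACCT, for *Spats2l*. Among all 33469 RefSeq promoters, 5415 (16.2%) held at least 1 match. Of the other 7 genes found, the window of *Gstm1* held 1 match, and those of *Ccdc85c*, *Cgnl1*, *Bphl*, *Mecr*, *Serpina7* and *Ehhadh* held no match to these letters. Among the named windows 0 held the direct repeat AGGTCANAGGTCA, which 18 of all promoters (0.0538%) held.

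Below the threshold, genes with higher liver and lower kidney values continued the list. *Dgkd* (a diacylglycerol kinase) had a difference of 0.77 (adjusted p = 0.0507), with 2 dimmer probe sets at −0.17 and −0.02. *Bphl*, a serine hydrolase of the biphenyl hydrolase family that cleaves ester prodrugs, had 0.48 (SE 0.10, adjusted p = 0.0618). *Pecr*, the peroxisomal enoyl-CoA reductase, had 0.54 (adjusted p = 0.0622), and *Mecr*, the mitochondrial enoyl-CoA reductase of fatty acid synthesis, had 0.62 (adjusted p = 0.0704). For *Dgkd* and *Bphl* kidney vehicle replicates 2 and 3 lay above all 15 other kidneys, and for *Pecr* and *Mecr* they did not. For *Bphl* and *Mecr* every dosed liver lay above every vehicle liver and every dosed kidney below every vehicle kidney. *Mecr* read 8.19, 7.84, 7.61 and 7.96 in vehicle livers, 8.25, 8.32, 8.31 and 8.41 in dosed livers, 7.53, 7.52 and 7.57 in vehicle kidneys and 7.39, 7.32 and 7.31 in dosed kidneys, and its liver change of 0.42 was called (adjusted p = 0.0299).

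Against the lower doses 9 probe sets were called (0.029%), 9 of them above 0. Besides *Hes6* and *Slc16a13* these were *Bphl* at 0.51 (adjusted p = 0.00888), *Mecr* at 0.61 (adjusted p = 0.0356), *Sectm1b*, *Ppp1r14a*, *Smyd2*, *Dennd10* and an unnamed probe set. *Sectm1b*, a secreted and transmembrane protein gene, had a difference of 0.93 (adjusted p = 0.00888) beside 0.73 (adjusted p = 0.106) against vehicle. *Ppp1r14a*, an inhibitor of myosin phosphatase, had 0.89 beside 0.65, and *Smyd2*, a lysine methyltransferase gene, had 0.73 beside 0.46. *Dennd10* had 0.52 beside 0.23 (adjusted p = 0.549 against vehicle). Vehicle and the 3 lower doses were also pooled as 1 reference of 15 livers and 9 kidneys, again chosen after the data had been seen. With it 42 probe sets were called (0.135%), 35 above 0 (0.113%) and 7 below (0.0226%). Of the 35, 25 had liver up and kidney down, each at an unadjusted p under 0.05 in limma. Selection on the difference favours this kind, and its share over all probe sets is not given here. Among the 35 were *Hes6* at 1.03 (adjusted p = 0.00036), *Slc16a13* at 1.03 (adjusted p = 0.000559), *Bphl*, *Mecr*, *Fbxo6*, *Dgkd* and *Pir*. The pooled kidney change was called for *Hes6* (adjusted p = 0.042). For the others named here it was not, with adjusted p of 0.177 to 0.467. *Trps1* and the probe sets of *Spats2l* and *Cgnl1* were not among the 42, and their pooled values of −0.96, −0.90 and −0.63 had adjusted p of 0.144, 0.051 and 0.419.

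Response classes were drawn at a looser level, an unadjusted p under 0.01 for the difference, which 1089 probe sets passed (3.51%). An organ counted as responding where its own change had an unadjusted p under 0.05, and an organ beyond that limit is not shown to be without a change. Percentages are of all probe sets. Among the 467 differences above 0 (1.5%), 178 were of liver alone (0.573%), 212 of kidney alone (0.683%), 75 of opposite changes (0.242%) and 2 of neither (0.00644%). Among the 622 below 0 (2%), 85 were of liver alone (0.274%), 487 of kidney alone (1.57%), 44 of opposite changes (0.142%) and 6 of neither (0.0193%). At these limits 0 probe sets counted as changed the same way in both organs. Selection on the difference works against that class, so the 0 does not speak for a lack of shared changes. *Eci1* and *Abhd1*, for example, changed the same way, with an unadjusted p of 0.022 and 0.027 for the difference in limma. The number of shared changes over all probe sets is not given here. Dosed and vehicle arrays did not overlap in either organ for 93 probe sets (0.3%) with liver up and kidney down. With liver down and kidney up this held for 52 (0.168%). How many probe sets separate in a single organ is not given here. With so few arrays a group such separation can arise by chance, so it describes a gene and does not test it.

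**Figure D3:**
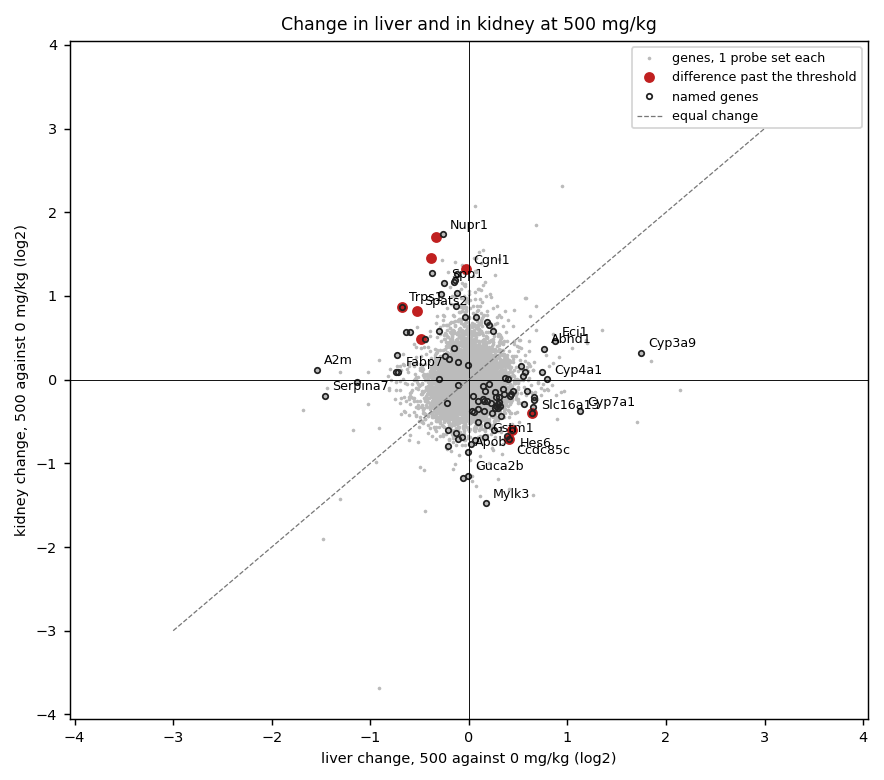
Liver change (x) and kidney change (y) at 500 against 0 mg/kg, log2; grey points are the 14217 genes, red points the 9 called probe sets, open circles the named genes, and the dashed line marks equal change. Hes6, Slc16a13 and Ccdc85c lie at lower right, and A2m and Serpina7 near the zero line of the kidney axis.

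Genes that moved in liver alone included secreted proteins that kidney hardly showed. *A2m*, a plasma proteinase inhibitor, read 9.48, 10.41, 9.98 and 10.61 in vehicle livers and 8.17, 8.54, 8.72 and 8.87 in dosed livers, without overlap, and 3.16 to 3.56 in the vehicle and dosed kidneys. Its liver change of −1.54 was called (adjusted p = 0.000817), whereas the difference of −1.66 (SE 0.36) was not (adjusted p = 0.0704). *Serpina7*, which encodes thyroxine-binding globulin, had a called liver change of −1.46 (adjusted p = 0.000116) and a difference of −1.27 (SE 0.30, adjusted p = 0.0836), with vehicle livers of 9.86 to 10.54. Its kidneys were near the bottom of the scale, at 2.80 to 2.94 in the vehicle and 2.63 to 2.71 in the dosed arrays, also without overlap. *Cyp3a9*, a steroid- and drug-oxidising P450, rose in liver by 1.75 (adjusted p = 0.00254) and had a kidney change of 0.32 at vehicle means of 7.82 in liver and 3.26 in kidney, for a difference of 1.43 (SE 0.44, adjusted p = 0.193). The bile acid synthesis enzyme gene *Cyp7a1* had an uncalled liver change of 1.13 (adjusted p = 0.338), with overlapping groups and vehicle livers from 8.72 to 10.55. Its dosed kidneys lay below all vehicle kidneys, at a vehicle kidney mean of 3.34, and its difference was 1.50 (SE 0.63, adjusted p = 0.379). *Fabp7*, a fatty acid binding protein gene, had an uncalled liver change of −0.72 (adjusted p = 0.103) and a difference of −0.81 (SE 0.28, adjusted p = 0.24). Its vehicle means were 12.16 in liver and 2.83 in kidney. Against the lower doses the differences of these genes were not called either. They were −1.10 for *A2m*, −1.11 for *Serpina7*, 0.67 for *Cyp3a9*, 0.46 for *Cyp7a1* and −0.25 for *Fabp7*. Liver replicate 3 at 10 mg/kg read 9.45 for *Cyp3a9*, within the range of 9.26 to 9.83 at 500 mg/kg.

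Other genes with a called liver rise were expressed in kidney at higher levels than these. *Cyp4a1*, the fatty acid omega-hydroxylase, read 11.18, 10.77, 10.98 and 10.64 in vehicle livers and 11.66, 11.70, 11.64 and 11.75 in dosed livers, beside 10.27, 10.57 and 10.17 in vehicle and 10.61, 10.10 and 10.32 in dosed kidneys. The livers did not overlap and the kidneys did, with a liver rise of 0.79 (adjusted p = 0.0105), a kidney change of 0.00 (SE 0.17) and a difference of 0.79 (SE 0.23, 95% confidence interval 0.33 to 1.26, adjusted p = 0.153). *Ehhadh*, the peroxisomal bifunctional enzyme, rose in liver by 0.74 (adjusted p = 0.0035), had a kidney change of 0.09 (SE 0.15) and a difference of 0.66 (SE 0.20, adjusted p = 0.172). Its vehicle means were 10.85 in liver and 10.12 in kidney. *Blvrb*, biliverdin reductase B, rose in liver by 0.55 (adjusted p = 0.0156) beside a kidney change of 0.04, at vehicle means of 10.00 and 7.90. *Tmem97*, which encodes a membrane protein under sterol control, had a liver rise of 0.53 (adjusted p = 0.00874) beside 0.17, at vehicle means of 9.77 and 7.69. *Eci1*, the enoyl-CoA isomerase, and *Abhd1*, an alpha/beta hydrolase gene, had changes above 0 in both organs. *Eci1* rose in liver by 0.87 (adjusted p = 6.45e-05) with a kidney change of 0.46 (adjusted p = 0.0689), and *Abhd1* rose in liver by 0.76 (adjusted p = 0.000412) with a kidney change of 0.37 (adjusted p = 0.19). Their differences of 0.41 and 0.39 were not called, and kidney vehicle replicates 2 and 3 were the 2 lowest kidneys for *Eci1*. Against the lower doses the differences were 0.41 for *Cyp4a1*, 0.53 for *Ehhadh*, 0.40 for *Eci1* and 0.39 for *Abhd1*. For *Blvrb* the difference was 0.51 against vehicle and 0.47 against the lower doses, and for *Tmem97* 0.36 and 0.25. None of these was called.

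Among genes whose change was called in kidney and not in liver, lower in dosed kidneys were *Gstm1*, a glutathione transferase gene, *Guca2b*, which encodes uroguanylin, *Mylk3*, a myosin light chain kinase gene, *Cyp2f4*, a P450 gene, *Pc* (pyruvate carboxylase), *Dio1* (the thyroid hormone deiodinase) and *Shmt2* (mitochondrial serine hydroxymethyltransferase). *Gstm1* read 8.19, 8.23 and 8.14 in vehicle kidneys and 7.72, 7.13 and 7.64 in dosed kidneys, and 12.59 to 12.69 in vehicle and 12.72 to 12.88 in dosed livers. Neither organ's groups overlapped, with a liver change of 0.17 (adjusted p = 0.791). Kidney replicate 2 at 1 mg/kg read 7.17, within the range at 500 mg/kg. *Gstm1* fell in kidney by 0.69 (adjusted p = 0.0151) and had a difference of 0.85 (SE 0.20, adjusted p = 0.0836). *Mylk3* fell in kidney by 1.48 (adjusted p = 0.00653), from 5.56, 7.09 and 6.61 to 5.25, 4.44 and 5.14, at liver values of 3.95 to 4.80, and its difference was 1.65 against vehicle (adjusted p = 0.0836) and 1.54 against the lower doses. *Guca2b* fell in kidney by 1.15 (adjusted p = 0.00498), *Cyp2f4* by 0.76 (adjusted p = 0.00455), *Pc* by 0.80 (adjusted p = 0.00274), *Dio1* by 0.71 (adjusted p = 0.00498) and *Shmt2* by 0.51 (adjusted p = 0.0374). Vehicle means in liver and kidney were 4.08 and 6.56 for *Guca2b*, 9.15 and 5.18 for *Cyp2f4*, 9.97 and 10.02 for *Pc*, 6.85 and 7.85 for *Dio1* and 10.06 and 9.67 for *Shmt2*. The liver change of *Pc* was −0.21 (adjusted p = 0.601), with all dosed livers below all vehicle livers, and those of the other 4 lay between −0.11 and 0.09. Vehicle replicates 2 and 3 did not lie beyond all other kidneys for any of these 7 genes, and none of the 7 differences was called. Over all probe sets, limma called 87 kidney changes below 0 as reported, 2 without vehicle replicate 2 and 10 without replicate 3. The kidney calls of these genes can therefore still depend on those arrays.

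Among plasma protein genes, 2 of 25 of complement and coagulation, 1 of 19 of plasma transport and 0 of 25 of the acute phase were called lower in kidney, against 60 of all 14217 genes. The 9 hepatocyte markers had 6 kidney changes above 0, with a median of 0.11. *Apob*, the main protein of very low density lipoprotein, fell in kidney by 0.86 (adjusted p = 0.0333), from 5.19, 5.79 and 4.93 to 4.41, 4.39 and 4.54, beside a liver change of −0.01 at 13.56 to 13.65. Its second, dimmer probe set had a kidney change of 0.15 and a difference of 0.01, so the 2 probe sets disagree. *Proc*, the anticoagulant protein C gene, fell in kidney by 0.64 (adjusted p = 0.0052) with a liver change of −0.13, and the complement gene *C5* fell by 0.60 (adjusted p = 0.006) with a liver change of −0.21. Dosed and vehicle livers did not overlap for *Proc* and *C5*, which can occur by chance in groups of this size. Vehicle means in liver and kidney were 12.26 and 9.11 for *Proc* and 11.28 and 8.88 for *C5*. The differences of the 3 genes were 0.85, 0.51 and 0.39, none of them called.

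Higher in dosed kidneys was *Nupr1*, a stress-induced nuclear protein gene. *Nupr1* rose in kidney by 1.74 (SE 0.40, adjusted p = 0.0187), from 5.75, 4.85 and 6.15 to 6.83, 7.78 and 7.36, without overlap. Its kidney replicates 2 at 1 and 100 mg/kg read 7.42 and 7.63, within the range at 500 mg/kg. The kidneys at 300 mg/kg read 5.69 to 6.22 for *Nupr1*. Its livers ranged from 8.85 to 10.20 in both groups, and the difference was −2.0 (SE 0.53, adjusted p = 0.118) against vehicle and −1.65 (adjusted p = 0.175) against the lower doses. The kidney injury gene *Spp1*, osteopontin, had a kidney change of 1.15 (adjusted p = 0.115) and a difference of −1.40 (SE 0.48, adjusted p = 0.235). Its vehicle means were 6.21 in liver and 9.63 in kidney. Others higher in dosed kidneys were *Pcf11* (transcript cleavage), *Rsf1* (chromatin remodelling), *Ddx6* (an RNA helicase of P-bodies), *Rbm27* (RNA binding), *Clip1* (microtubule ends), *Zbtb41* and *Sv2b* (a synaptic vesicle glycoprotein), with called kidney rises of 0.75 to 1.27 and differences of −1.64 to −0.79 that were not called. For these 7 genes vehicle replicates 2 and 3 were the 2 lowest of all kidneys. Their vehicle means lay between 6.94 and 10.06 in liver and between 5.80 and 9.13 in kidney. The other 10 probe sets of *Pcf11*, *Rsf1*, *Ddx6*, *Rbm27*, *Clip1* and *Sv2b* had kidney changes between −0.20 and 0.64, the highest for *Clip1*, and differences between −0.78 and 0.02. *Ddx6*, for example, read 9.96 in vehicle replicate 1, 8.07 and 8.54 in replicates 2 and 3 and 9.83, 10.24 and 10.07 in the dosed kidneys, and against the lower doses its difference was −0.49 beside −1.33.

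**Figure D4:**
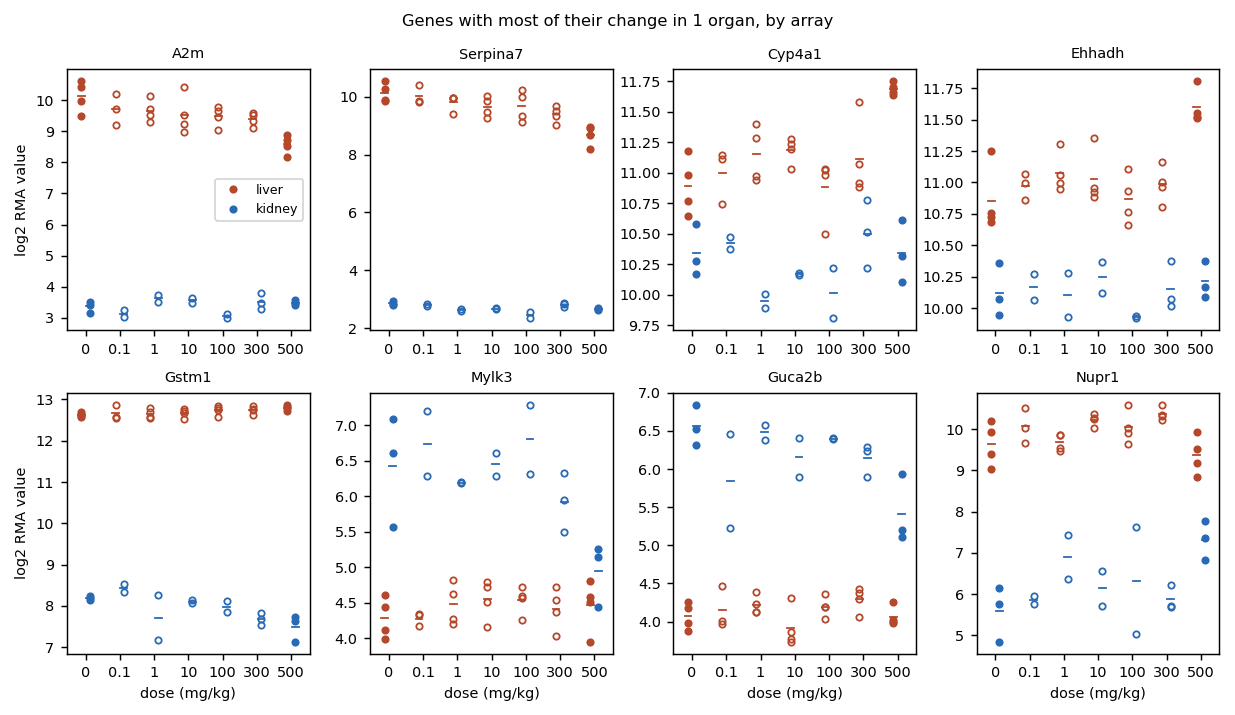
Log2 RMA value of 8 genes by dose in mg/kg, with each array as a point, filled at 0 and 500 mg/kg, and group means as bars. A2m, Serpina7, Cyp4a1 and Ehhadh separate 500 mg/kg from vehicle in liver, as the low Serpina7 values do in kidney too. Gstm1, Mylk3 and Guca2b are lower and Nupr1 higher in kidneys at 500 mg/kg than in vehicle kidneys.

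Pathway lists were read against all 14217 genes, of which 1039 had a difference above 0 at an unadjusted p under 0.05 and 487 below, a share of 7.31% and 3.43%, with a median difference of 0.05. Against the lower doses the shares were 8.5% above and 2.58% below, with a median of 0.04. None of the members of the 27 lists was called on the difference. Of 26 NRF2 targets 9 were above 0 at that p and 0 below, with a median of 0.22, with the smallest p for *Gstm1*, *Blvrb* and *Ugdh* (UDP-glucose dehydrogenase), and 7 and 0 against the lower doses. Of 27 conjugation enzymes 8 were above and 1 below, with a median of 0.09, and 3 members were called lower in kidney, against 60 of all 14217 genes. Of 22 CAR and PXR targets 5 were above and 0 below, with a median of 0.19. Some genes stand in several of these lists, *Gstm1* in 3. Of 35 PPARA targets 6 were above, among them *Cyp4a1* and *Ehhadh*, and 2 below, with a median of 0.08. *Acsl1*, the long-chain acyl-CoA synthetase, was 1 of the 2 below, at −0.46, with a kidney change of 0.47.

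Energy metabolism lists are read against the same shares. Of 30 oxidative phosphorylation genes 4 were above 0 and 0 below, and 11 and 0 against the lower doses, with medians of 0.09 and 0.14. *Atp5f1c*, a subunit of the mitochondrial ATP synthase, led the list at 0.30 (SE 0.09, adjusted p = 0.179). Of 20 genes of ketone and mitochondrial fat oxidation 3 were above and 0 below, and of 22 fatty acid synthesis genes 3 and 0, with a median of 0.27. Of 18 glucose production genes 3 were above and 0 below, with a median of 0.05, and 4 had liver up with kidney down and 4 the reverse. The 25 ATF4 genes of the amino acid response had 4 above and 1 below, with a median of 0.30 that was −0.09 against the lower doses, so the sign depended on the reference. Of 26 kidney injury genes 1 was above and 5 were below, with a median of −0.09, and against the lower doses 1 and 1, with a median of 0.00. Neither *Havcr1* nor *Lcn2*, widely used markers of tubular injury, was called, with differences of −0.05 (SE 0.34) and −0.18 (SE 0.45).

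**Figure D5:**
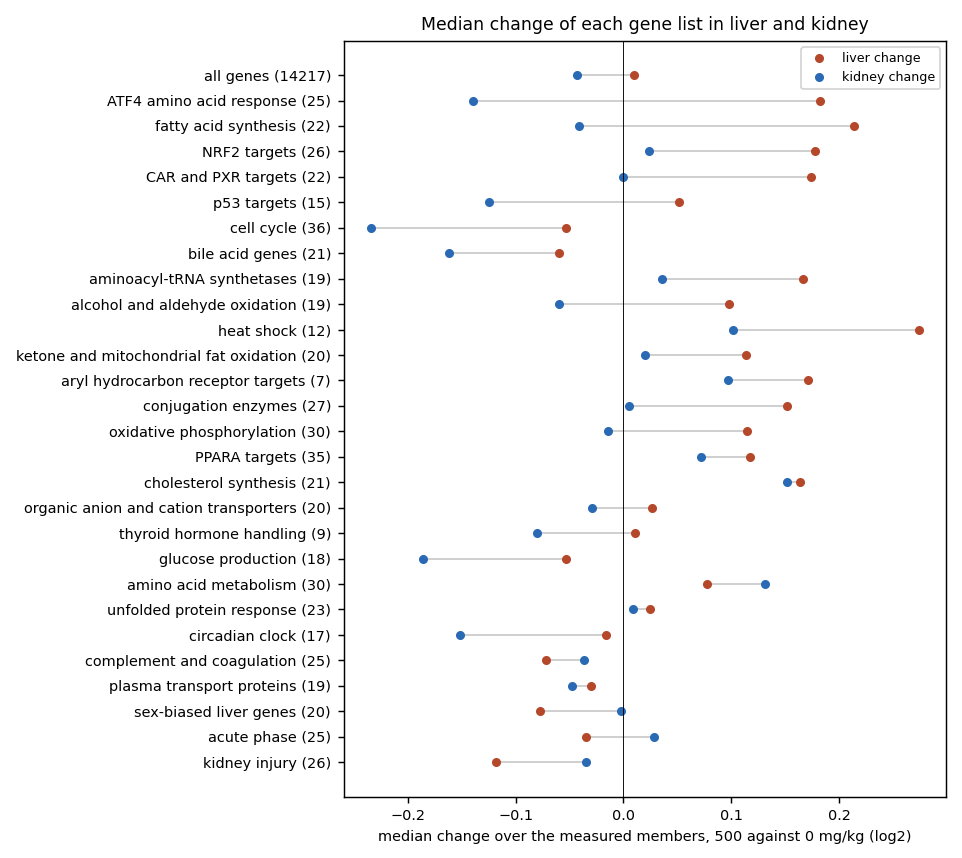
Median log2 change at 500 against 0 mg/kg over the measured members of each of 27 gene lists and over all genes, in liver (red) and kidney (blue); numbers in brackets count the members. The ATF4 and fatty acid synthesis lists have the widest gaps, with liver medians of 0.18 and 0.21 and kidney medians of −0.14 and −0.04, against 0.01 and −0.04 over all genes.

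Mean levels of some marker lists of other cell types differed between dosed and vehicle arrays. The mean of 7 thick ascending limb markers lay between 10.09 and 10.57 in vehicle and between 10.46 and 11.10 in dosed kidneys, and its members had a median difference of −0.46. The mean of 6 podocyte markers lay between 7.02 and 7.38 in vehicle and between 6.85 and 7.05 in dosed kidneys, and that of 10 macrophage markers between 5.88 and 6.03 and between 5.54 and 5.81. In liver the mean of 13 lymphocyte and plasma cell markers lay between 5.29 and 5.42 in vehicle and between 5.07 and 5.13 in dosed arrays. The mean of 11 endothelial markers lay between 6.64 and 6.78 in vehicle and between 6.44 and 6.58 in dosed kidneys, and that of the lymphocyte list between 4.72 and 4.80 and between 4.50 and 4.66. In liver 12 markers of stellate cells and fibroblasts lay between 7.15 and 7.54 in vehicle and between 6.95 and 7.14 in dosed arrays. Thick limb and podocyte ranges overlapped, and the others above did not. Among the 16 marker lists, ranges also did not overlap for muscle in kidney and hepatocytes in liver. The 8 muscle markers lay between 3.93 and 4.03 in vehicle and 4.04 and 4.17 in dosed kidneys. The hepatocyte markers lay between 13.85 and 13.87 in vehicle and 13.78 and 13.84 in dosed livers. With 3 or 4 arrays a group, ranges of some lists can separate by chance. The mean of 11 fat cell markers ranged from 5.38 to 7.12 in vehicle and from 5.40 to 7.73 in dosed kidneys. The part of these shifts in the differences above was not tested.

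At 300 mg/kg the same subtraction, against the same vehicle arrays, gave 0 calls in limma, with 1961 probe sets (6.32%) at an unadjusted p under 0.05, and 2 calls without kidney replicate 2 at 300 mg/kg. For *Hes6* the difference was 0.30 at 300 mg/kg beside 1.05 at 500 mg/kg, for *Slc16a13* 0.41 beside 1.04, for *Ccdc85c* 0.47 beside 1.12, for *Mylk3* 0.63 beside 1.65 and for *Nupr1* 0.43 beside −2.0. *Gstm1* had 0.62 beside 0.85 and *A2m* −0.88 beside −1.66. Both doses share the vehicle arrays, and the step between them was not tested.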

How the data were processed

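Total RNA of each tissue was labelled with biotin and hybridised to Affymetrix Rat Genome 230 2.0 arrays, 1 sample an array. The deposited values are log2 expression values from RMA, per the submitters' processing notes. The sources used here do not give the RMA version or whether both organs were normalised together. Quantile normalisation within RMA hides a shift shared by most transcripts. Detection above background was not assessed, since scanner files were not used here. Of 31099 probe sets, 57 AFFX controls were removed, and 20826 of the 31042 tested have 1 gene symbol in the platform annotation. Symbols were updated by gene ID through RefSeq GRCr8, and each of 14217 genes was represented by its brightest probe set, by the mean of both organ means. Promoter sequences come from the RefSeq GRCr8 table, which held 9 of 13 genes looked up. Probe positions were not used.

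limma 3.58.1 in R 4.3.3 fitted all 44 arrays as 14 groups of organ and dose, which share 1 estimate of the spread with 30 residual degrees of freedom, and the difference was a contrast of 4 groups. Tests were two-sided. Named genes are the 10 each way with the smallest p for the difference, up to 4 per response class and direction, up to 2 per list and a set of preset genes. Other called probe sets, *Acsl1* and *Ugdh* were named after their values were seen. Members and lists were chosen with earlier results of these data known. The fit was checked on simulated data. The titles call the replicates biological, and p-values measure the spread between these arrays. Alternatives changed the arrays, the prior, the filter, the normalisation, the block and the reference. Same-numbered arrays of the 2 organs were not treated as pairs: their deviations correlated at −0.10 to 0.18, over 0.1 in 3 of 15 pairs, with the own number the best match in 7, among them all 3 vehicle pairs. The number of arrays limits the precision.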

Additional observations from a re-analysis of the deposited data

Results flagged for a closer look

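The 9 differences past the threshold against vehicle were 1.05 for *Hes6*, 1.12 for *Ccdc85c*, 1.04 for *Slc16a13*, −1.55 for *Trps1*, −1.35 for the probe set of *Spats2l*, −1.35 for that of *Cgnl1*, and −1.84, −2.04 and −0.97 for 3 unnamed probe sets, where the 2 organs differ by the test of the difference itself. Against the lower doses they were 1.02 for *Hes6*, 1.02 for *Slc16a13*, 0.51 for *Bphl*, 0.61 for *Mecr*, 0.93 for *Sectm1b*, 2.07 for an unnamed probe set, 0.89 for *Ppp1r14a*, 0.73 for *Smyd2* and 0.52 for *Dennd10*.

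Single liver arrays lay far from the other 3 of their group in 13 of 214 groups, and chance alone marks about 1 in 20 groups. Among vehicle livers these were replicate 1 for *Pcf11* (7.68), *Ehhadh* (11.25), *Slco2b1* (9.61) and *Nqo1* (7.95), replicate 2 for *Atp5f1c* (12.41), replicate 3 for *Ppp1r14a* (6.96) and replicate 4 for *Smyd2* (6.58). Among dosed livers they were replicate 2 for *Hes6* (10.49), *Hspa4l* (5.52) and *Adh1c* (13.15), replicate 3 for *Trps1* (4.70), and replicate 4 for *Guca2b* (4.25) and *Ehhadh* (11.81). Groups of 3 kidneys were not examined in this way.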

How the results depend on the processing

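Of the named single-gene values, 2666 kept direction and side of the threshold under an alternative, 103 passed it, 112 lost it and 29 changed sign. Values uncalled in both fits count as kept, and most named values were uncalled as reported. The 112 losses all fall on the 9 called differences, so the large share kept does not speak for the stability of those calls. The count of differences past the threshold, 9 as reported, was 2 with the 14 arrays alone, 26 with a trended and robust prior, 57 among probe sets above the median in both organs, 16 after renormalisation within each organ, 0 without vehicle array 2 of both organs (2038 at an unadjusted p under 0.05) and 0 to 746 with 1 array left out. Without kidney vehicle replicates 1, 2 and 3 in turn it was 746, 0 (2127 at that p) and 2, without kidney replicates 1, 2 and 3 at 500 mg/kg 24, 3 and 4, without liver vehicle replicates 2, 3 and 4 it was 5, 2 and 5, without liver replicates 2 and 4 at 500 mg/kg 4 and 3, and without kidney replicate 2 at 300 mg/kg 33. The replicate number as a block within each organ gave 3, and 5 against the lower doses, where number and dose as 1 animal gave 15. Settings chosen after seeing the data gave 0 with kidney vehicle replicate 1 alone (1048 at that p), 42 with vehicle and lower doses pooled and 4 with the beta-actin covariate. For the liver change, 57 as reported, the counts were 35 with the 14 arrays, 87 with the filter, 17 without vehicle array 2, 249 pooled and 20 to 87 with 1 array left out (87, 20, 22 and 32 without liver vehicle replicates 1 to 4, 30 and 22 without dosed livers 3 and 4). For the kidney change, 425 as reported, they were 3 with the 14 arrays, 0 without vehicle array 2 (1969 at an unadjusted p under 0.05), 1 with vehicle replicate 1 alone, 64 pooled (8 above 0), 22 with the covariate and 3 to 1321 with 1 array left out (1321, 3 and 17 without vehicle replicates 1 to 3, 131 and 139 without dosed kidneys 2 and 3, 657 without kidney replicate 2 at 300 mg/kg). At 300 mg/kg, 0 as reported, they were 1 with the trended prior, 6 pooled, 3 with the covariate and 0 to 200 with 1 array left out (200 without kidney vehicle replicate 1). Against the lower doses, 9 as reported, they were 48 with the trended prior, 60 with the filter and 1 to 20 with 1 array left out (20, 1 and 5 without dosed kidneys 1 to 3). The 14 arrays alone give no value for 300 mg/kg and lower doses, nor does the pooled reference for the lower doses. Other probe sets turned the sign of *Dgkd* (−0.17 and −0.0188), *Tox* (−0.16), *Pcf11* (0.0044), *Sv2b* (0.017), *Mdm2* (−0.17), *Ttk* (−0.21), *Eci1* (−0.0513) and *Eprs1* (0.31), and vehicle replicate 1 alone that of *Ttk* (−0.0249) and *Eprs1* (0.25). Values near 0 turned for *Lcn2* (−0.461 to 0.0588 with 1 array left out), *Pck1* (−0.149 to 0.197 with 1 array left out, −0.0330 with kidney vehicle replicate 1 alone, −0.0300 pooled) and *Havcr1* (−0.222 to 0.099 with 1 array left out, 0.29 with vehicle replicate 1 alone, 0.17 pooled, 0.18 with the covariate). The causes were not tested beyond these fits.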
